A study of Mus musculus with 159 samples.

Results

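The genes Lrat, Reln, Ecm1 and Ngfr, taken here as genes of quiescent hepatic stellate cells, were followed by name across a spatial transcriptome of mouse liver. Whether the cells were quiescent was not tested, and the paper counts Ecm1 and Reln among key fibrogenesis genes. They are 4 of the 607 genes in the deposited table, which holds segments cut from 51 regions of interest (ROIs) of 4 livers. The mice were wild-type C57BL/6, 8 weeks old when carbon tetrachloride (CCl4) was first given, and by the methods all 4 received CCl4 for 6 weeks, with bone marrow-derived MARCO+ macrophages or saline injected at weeks 3 and 5. The labels call livers 1 and 3 treated CCl4 (fibrosis) and livers 2 and 4 control (healthy), and they do not say which livers received macrophages, so the pairs are named here by their labels alone. Each ROI was placed by hand where MARCO staining was high (MarcoHi) or low (MarcoLo) and was split by antibody signal into DESMIN-positive segments (Des+, stellate cells), MARCO- and IBA1-positive segments (Marco+IBA+, macrophages), IBA1-positive and MARCO-negative segments (Marco-IBA+, other macrophages) and the remainder (Else, which in liver is mostly hepatocytes). There were 41 Des+ segments (25 MarcoHi and 16 MarcoLo), 45 Marco+IBA+ segments, 24 Marco-IBA+ segments and 49 Else segments. The replicate is the liver, and each liver is 1 animal, so with 4 livers the number of animals limits every statement below.

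Hepatic stellate cells lie in the space between the sinusoidal endothelium and the hepatocytes. In the quiescent state they store vitamin A as retinyl esters in lipid droplets, and on injury they lose the droplets, become contractile and lay down collagen. LRAT (lecithin retinol acyltransferase) makes those retinyl esters and is the classic enzyme marker of the quiescent cell. Reelin, the product of Reln, is a large secreted glycoprotein best known for guiding neurons, and in liver stellate cells are its main source. ECM1 (extracellular matrix protein 1) is a secreted glycoprotein that holds latent TGF-beta in its inactive form. NGFR (the p75 neurotrophin receptor) binds neurotrophins and sits on the stellate cell surface. In GRCm38.p6 Lrat lies on chromosome 3 from 82892582 to 82903974, Ecm1 on chromosome 3 from 95734147 to 95739876, Reln on chromosome 5 from 21884454 to 22344705 and Ngfr on chromosome 11 from 95568818 to 95587698.

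The sequences just before the start of Reln and of Lrat are shown because, of the members, Reln fell in MarcoHi ROIs and Lrat did not pass that test, as described further on. Each is the RefSeq sequence of the 250 bases before the transcript start (GRCm38.p6, minus strand, written 5′ to 3′, chr5:22344706-22344955 for Reln and chr3:82903975-82904224 for Lrat). Capitals mark GGGCGG, the GC box, or its reverse complement.
Reln: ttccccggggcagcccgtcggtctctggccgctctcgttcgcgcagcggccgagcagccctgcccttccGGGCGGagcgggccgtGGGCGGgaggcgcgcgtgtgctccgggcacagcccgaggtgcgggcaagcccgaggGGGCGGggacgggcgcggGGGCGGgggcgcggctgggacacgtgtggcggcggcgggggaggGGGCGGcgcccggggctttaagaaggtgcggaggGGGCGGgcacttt
Lrat: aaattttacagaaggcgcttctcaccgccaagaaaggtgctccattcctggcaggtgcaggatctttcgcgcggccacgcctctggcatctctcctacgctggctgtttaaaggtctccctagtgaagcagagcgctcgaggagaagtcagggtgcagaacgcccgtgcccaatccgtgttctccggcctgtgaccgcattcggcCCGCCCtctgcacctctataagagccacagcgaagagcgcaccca
The Reln window held 6 GC boxes and was 80% G or C, whereas the Lrat window held 1 GC box and was 59.2% G or C. Of 32851 RefSeq windows of the same length, 32.7% held at least 1 GC box on either strand. The Ngfr window held 4. The Ecm1 window, which lies within the annotated span of the gene, held 1 GC box and was 54% G or C, close to Lrat, although Ecm1 fell in MarcoHi ROIs as Reln did. A link between GC boxes and the differences between ROI classes was not tested. The letters CCAAT, searched on both strands, stood once in the Lrat window and in none of the other windows, and 33.8% of all windows held them. These are letter matches and not measured binding sites.

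Values are counts of deduplicated probe barcodes scaled by the authors so that the 75th percentile of every segment is equal (Q3 normalisation). The 607 genes were chosen by the authors as genes of stellate cells, so a level is a level relative to other stellate cell genes in the same segment, and levels are compared between segments but not between genes. Depth differed strongly between segment types. The recovered total over the 607 genes had a median of 3675 counts in Des+, 8408 in Marco+IBA+, 1639.5 in Marco-IBA+ and 209469 in Else segments. No value fell below 1 count, so a gene at 1 count cannot be told from a gene that was not detected. The sources used here do not say whether counts below 1 were raised to 1 or 1 was added to every count, and in the latter case each count given here is 1 too high, which bears most on Lrat, on Ngfr and on the Marco-IBA+ segments. As recovered, 1 count was worth a median of 3.72 in Des+, 1.68 in Marco+IBA+, 8.69 in Marco-IBA+ and 0.0687 in Else segments. In Des+ segments Lrat stood at 1 count in 5 of 41 segments, Reln in 2, Ecm1 in 0 and Ngfr in 14. In Marco-IBA+ segments the same held for 14, 8, 5 and 15 of 24 segments, so the lowest readable level there was itself high. Liver 2 had 2 Marco-IBA+ segments, both at 1 count for Lrat, Reln and Ngfr.

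The label Des+ was checked against 9 stellate cell markers, among them Des, Lrat, Reln, Pdgfrb, Hgf, Colec11, Cygb and Ngfr. Of the 9, 8 passed the test as higher in Des+ than in Else segments, where 37.6% of all 607 genes did so. Lrat, Reln and Ngfr are themselves members, so their results cannot check the label. Of the 6 markers that are not members, 5 passed. Des, which encodes the DESMIN protein used to draw the segments, was the exception, with a log2 difference of 0.36 ± 0.19 (SE, adjusted p = 0.11, limma), and it stood at 1 count in 20 of the 41 Des+ segments. Against Marco-IBA+ segments 4 of these 6 passed as higher, where 17.3% of all genes did. Pdgfrb did not pass there (0.24 ± 0.18, adjusted p = 0.27, limma). Des was lower in Des+ than in Marco-IBA+ segments, against the label (-0.56 ± 0.19, adjusted p = 0.023), with 17 of 24 Marco-IBA+ segments at 1 count. Of 14 macrophage markers Marco alone was measured, and its log2 difference between Des+ and Else segments was 0.08 ± 0.25 (adjusted p = 0.77). Of 6 portal fibroblast markers 2 were measured, Eln and Dpt, and both were higher in Des+ than in Else segments, as was Tagln, the single one measured of 5 smooth muscle markers. None of the endothelial, hepatocyte, cholangiocyte, lymphatic and Schwann cell markers listed was among the 607 genes, so the share of those cells in a segment was not tested.

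Ecm1 had the largest difference of the 4 genes between Des+ and Else segments. It ranged from 11.2 to 274 with a median of 117 in the 41 Des+ segments, from 15.9 to 85.2 (median 47.2) in Marco+IBA+, from 8.69 to 169 (median 50.6) in Marco-IBA+ and from 8.36 to 34.5 (median 14.0) in Else segments. Its mean in Des+ segments was 125, 135, 86.9 and 125 in livers 1 to 4, against 17.9, 13.3, 15.0 and 18.5 in Else segments, so the groups of liver means did not overlap. Single segments overlapped in all livers but 1. The log2 difference was 2.78 ± 0.20 (SE, n = 4 livers, adjusted p = 1.1e-09, limma with liver as a block), which is 6.88-fold, and it ranked 5th highest of 607 genes.

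Reln was the next. It ranged from 3.72 to 124 with a median of 46.9 in Des+ segments and from 7.79 to 18.1 (median 10.9) in Else segments. By liver its mean was 67.0, 63.0, 43.6 and 36.9 in Des+ segments against 12.2, 9.55, 13.2 and 9.80 in Else segments. The log2 difference was 2.11 ± 0.20 (adjusted p = 5.4e-08, limma), or 4.30-fold, the 13th highest of 607. Reln was higher in Des+ than in Else segments in 4 of 4 livers, and in 2 of them every Des+ segment lay above every Else segment.

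Lrat showed a smaller contrast. Its values ran from 3.72 to 52.1 with a median of 18.6 in Des+ segments and from 4.80 to 10.1 (median 6.51) in Else segments. The liver means were 15.7, 23.6, 21.0 and 16.8 in Des+ against 6.63, 6.14, 8.12 and 6.15 in Else segments, higher in 4 of 4 livers. The log2 difference was 1.38 ± 0.13 (adjusted p = 7.1e-08, limma), or 2.59-fold.

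Ngfr was the weakest of the 4. It ranged from 2.90 to 35.9 (median 9.31) in Des+ and from 3.30 to 9.46 (median 5.94) in Else segments, and its liver means were 9.27, 13.9, 13.7 and 6.16 against 6.32, 5.57, 6.83 and 4.63. The log2 difference was 0.73 ± 0.20 (adjusted p = 0.0041, limma), with 4 of 4 livers higher and single segments overlapping in every liver. Thus 4 of the 4 genes passed as higher in Des+ than in Else segments, where 37.6% of all 607 genes did so (65.9% passed in either direction and 28.3% as lower). With counts of 1 set to 0, an alternative chosen after seeing the data, Ecm1 kept its call (adjusted p = 2.1e-05). Reln (adjusted p = 0.058), Lrat (0.097) and Ngfr (0.57) did not, and the log2 difference of Ngfr was 0.48. Those of Reln and Lrat stayed near the values given above. These genes stood at 1 count in 2 and 5 of 41 Des+ segments and in 0 of 49 Else segments. The fit spans all 4 segment types and pools variance over genes, so zeros elsewhere also entered these adjusted p-values.

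**Figure D1:**
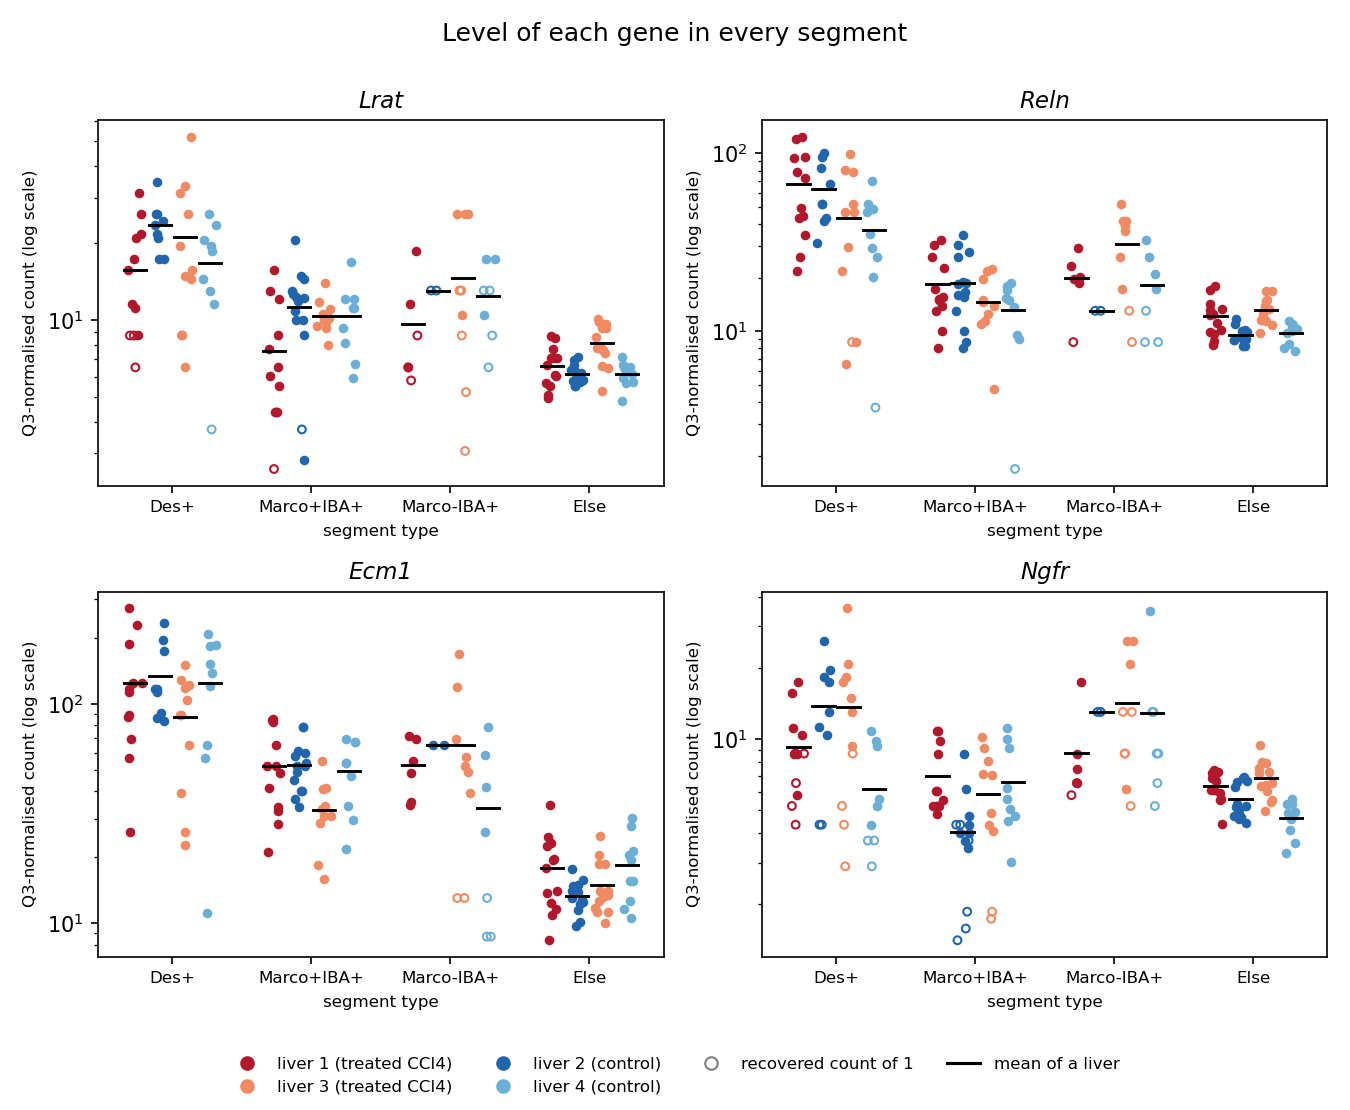
Q3-normalised count (vertical axis, log scale) of Lrat, Reln, Ecm1 and Ngfr in each segment, by segment type and coloured by liver. Bars are the means of a liver and open circles are segments at a recovered count of 1. All 4 liver means of Ecm1 and Reln in Des+ segments lie above those of every other segment type, while for Ngfr the Marco-IBA+ segments reach as high and most are open circles.

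Against the macrophage segments, the same comparison asks whether the genes read higher in DESMIN-positive than in IBA1-positive segments. Other non-parenchymal cells were not compared. The genes are known stellate cell markers in a table selected for stellate cell genes, so this is no independent test of their cell type. The 4 genes passed as higher in Des+ than in Marco+IBA+ segments, where 33.6% of all genes did (52.7% in either direction and 19.1% as lower). The log2 difference was 1.61 ± 0.20 for Reln (adjusted p = 2.2e-06), 1.32 ± 0.20 for Ecm1 (adjusted p = 1.7e-05), 0.89 ± 0.13 for Lrat (adjusted p = 1.7e-05) and 0.74 ± 0.20 for Ngfr (adjusted p = 0.0049, all limma). Reln, Ecm1 and Lrat were higher in 4 of 4 livers and Ngfr in 3 of 4. The call of Ngfr was lost without liver 2 (0.46, adjusted p = 0.074) and without liver 3 (0.61, adjusted p = 0.073). With counts of 1 set to 0 or the 10th percentile of each segment subtracted, neither Lrat (adjusted p = 0.35 and 0.063) nor Ngfr (0.52 and 0.12) passed there. Reln did not pass with counts of 1 set to 0 (adjusted p = 0.18), although its log2 difference was little changed.

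As recovered, Marco-IBA+ segments read between Des+ and Else segments for 3 genes. Of the 24 Marco-IBA+ segments, 14 stood at 1 count for Lrat and 8 for Reln. With counts of 1 set to 0, Lrat and Reln read below Else segments there, so for them this order is not settled. Reln ranged from 8.69 to 52.1 there (median 19.9) and was 1.34 ± 0.20 lower than in Des+ segments on the log2 scale (adjusted p = 2.9e-05). Ecm1 was 1.14 ± 0.20 lower (adjusted p = 0.00015) and Lrat 0.59 ± 0.13 lower (adjusted p = 0.0015, limma), each in 4 of 4 livers. For Ngfr the log2 difference of Des+ minus Marco-IBA+ was -0.21 ± 0.20 (adjusted p = 0.41), with 2 livers each way. So 3 of the 4 genes passed as higher in Des+, against 17.3% of all 607 (46.5% in either direction). The sign for Ngfr turned to 1.04 once counts of 1 were set to 0, and to 0.04 without liver 4.

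All 4 genes also read higher in Marco-IBA+ than in Else segments, where 52.4% of all genes passed in that direction (74% in either). The log2 differences were 1.64 ± 0.20 for Ecm1 (adjusted p = 1.0e-06), 0.94 ± 0.20 for Ngfr (adjusted p = 0.00044), 0.78 ± 0.13 for Lrat (adjusted p = 5.0e-05) and 0.77 ± 0.20 for Reln (adjusted p = 0.0022, limma). With counts of 1 set to 0, Ecm1 stayed above Else segments (adjusted p = 0.00066), whereas Lrat (-0.66), Reln (-0.33) and Ngfr (-0.56) changed sign. By edgeR 2 of the 4 genes passed, beside 324 of all 607, and by DESeq2 3, beside 318. Lrat missed the threshold by both tools (adjusted p = 0.11 and 0.062) and Ngfr by edgeR (0.061), and with the 10th percentile subtracted Lrat (0.17), Reln (0.74) and Ngfr (0.062) did not pass. Marco+IBA+ segments, which were deeper, differed from Else segments by 1.46 ± 0.20 for Ecm1 (adjusted p = 6.4e-06) and 0.49 ± 0.13 for Lrat (adjusted p = 0.0061). Reln (0.49 ± 0.20, adjusted p = 0.055) and Ngfr (-0.01 ± 0.20, adjusted p = 0.98) did not pass there. Lrat passed there under 15 of 18 alternatives. Those that lost its call included leaving out liver 4 (adjusted p = 0.063) and counts of 1 set to 0 (0.84). Reln passed under 4 of 18, among them without liver 3 (0.032) and by edgeR (0.00011) and DESeq2 (0.00069). Hence 2 of 4 genes passed as higher in Marco+IBA+ than in Else segments, against 19.6% of all genes.

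In order of the mean over livers, on the log2(value + 1) scale, Ecm1 ran from Des+ (6.87 ± 0.28, SD over 4 livers) through Marco-IBA+ (5.74 ± 0.44) and Marco+IBA+ (5.56 ± 0.32) to Else (4.09 ± 0.21). Reln took the same order, with 5.70 ± 0.41, 4.36 ± 0.49, 4.09 ± 0.24 and 3.60 ± 0.21. Lrat did as well, with 4.32 ± 0.26, 3.73 ± 0.23, 3.43 ± 0.23 and 2.95 ± 0.17. Ngfr began with Marco-IBA+ (3.70 ± 0.29), followed by Des+ (3.49 ± 0.50), Else (2.76 ± 0.21) and Marco+IBA+ (2.76 ± 0.30). With counts of 1 set to 0, Marco-IBA+ segments read below Else segments for Lrat, Reln and Ngfr. The place of Marco-IBA+ segments in the order of these genes is therefore not settled. The neighbours Marco-IBA+ and Marco+IBA+ passed the test of their difference for 1 of the 4 genes, Ngfr, against 38.1% of all genes called higher in Marco-IBA+ (46.1% in either direction and 8.07% as lower). By edgeR or DESeq2 on the recovered counts that number was 0, beside 140 and 89 of all genes, where limma called 280.

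**Figure D2:**
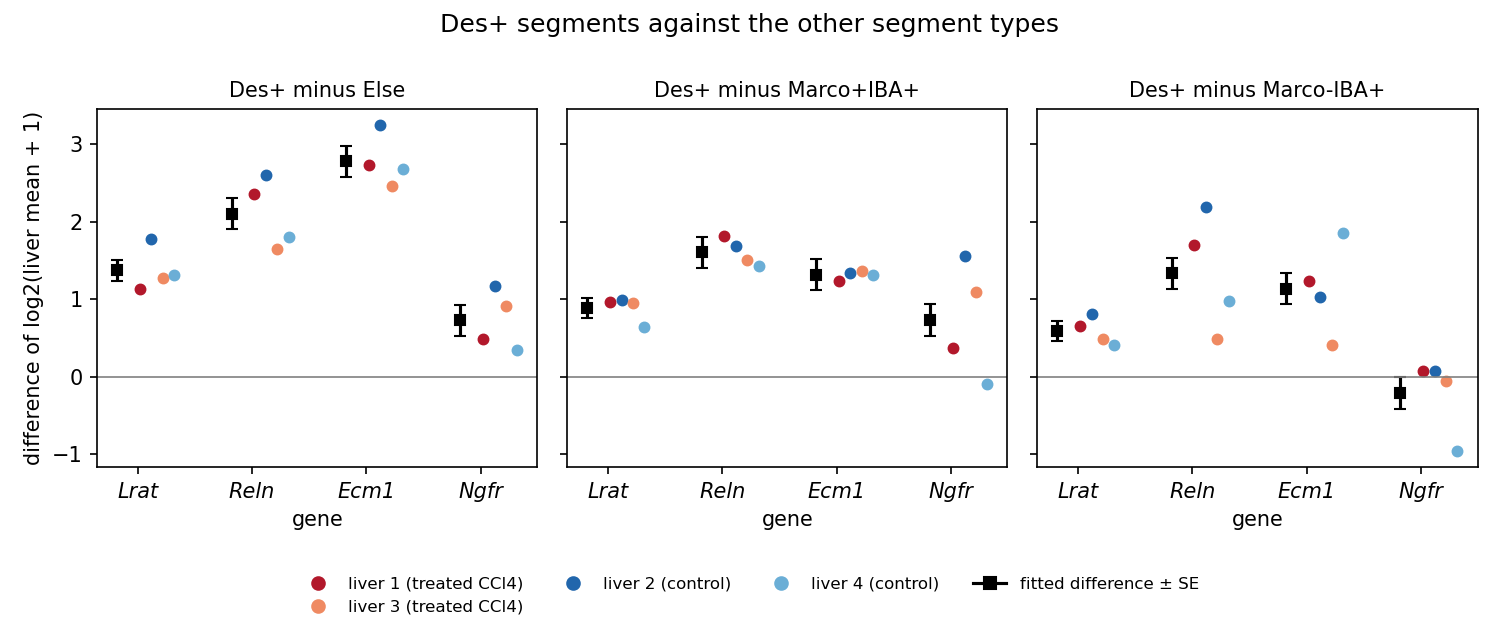
Difference of log2(liver mean + 1) between Des+ segments and Else, Marco+IBA+ or Marco-IBA+ segments for each gene. Black squares with bars are the fitted difference ± SE and dots are single livers. Every dot of Ecm1, Reln and Lrat lies above 0 in the 3 panels, and for Ngfr 2 of 4 lie below 0 against Marco-IBA+ segments.

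Within Des+ segments, the comparison of MarcoHi with MarcoLo ROIs asks whether stellate cells near many MARCO+ macrophages differ from those near few. Reln and Ecm1 fell in MarcoHi ROIs, whereas Lrat and Ngfr did not pass the test. In bulk segments fewer stellate cells and less RNA of a gene per cell cannot be told apart.

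Reln ranged in liver 1 from 21.7 to 49.3 (median 39.1) in 6 MarcoHi segments and from 73.0 to 124 (median 94.7) in 6 MarcoLo segments. In liver 3 it ranged from 6.52 to 46.9 (median 21.7) in 7 MarcoHi segments and from 52.1 to 98.7 (median 79.5) in 4 MarcoLo segments. In these livers, both labelled treated CCl4, no MarcoHi segment reached a MarcoLo segment. In liver 2 the range was 31.3 to 95.6 (median 47.8) in 6 MarcoHi segments and 67.4 to 101 (median 82.6) in 3 MarcoLo segments, and in liver 4 it was 3.72 to 69.5 (median 27.7) in 6 and 35.4 to 52.1 (median 48.4) in 3. The classes overlapped in both of these livers, which are labelled control. The difference of the log2 means was -1.39, -0.66, -1.64 and -0.46 in livers 1 to 4, lower in 4 of 4 livers. Over all livers it was -1.04 ± 0.20 (adjusted p = 0.0011, limma), so that Reln was 2.05-fold lower in MarcoHi ROIs and ranked 5th lowest of 607 genes. The SD of the liver differences was 0.57, and the SE leaves out variation between the label pairs.

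Ecm1 followed at a smaller size. Its MarcoHi and MarcoLo means were 75.5 and 174 in liver 1, 121 and 163 in liver 2, 70.3 and 116 in liver 3, and 98.5 and 177 in liver 4. Single segments of the classes overlapped in each liver. The log2 difference was -0.79 ± 0.21 (adjusted p = 0.014, limma), 1.73-fold lower and in 4 of 4 livers, from -0.42 in liver 2 to -1.20 in liver 1. Over the livers its SD was 0.32.

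Lrat averaged 14.7 in MarcoHi and 16.7 in MarcoLo segments of liver 1, 23.3 and 24.0 in liver 2, 21.6 and 20.1 in liver 3, and 14.3 and 21.7 in liver 4, with a log2 difference of -0.17 ± 0.21 (adjusted p = 0.73, limma). Ngfr had a log2 difference of -0.08 ± 0.21 (adjusted p = 0.89) and took values from -0.01 to -0.43 in 3 livers and 0.22 in liver 1. Altogether 2 of the 4 genes passed as lower in MarcoHi ROIs, against 3.79% of all 607 genes (4.45% in either direction and 0.659% as higher). The paper already names Reln and Ecm1 among the genes repressed in these data. It reports lower matrix genes in MarcoHi stellate segments after transfer of MARCO+ macrophages, and no such significant fall in the saline livers. The test here spans all 4 livers. The 4 genes were chosen with such results known. The count therefore describes the 4 genes and is no test of them as a set. The medians of 4 and 2 counts for Lrat and Ngfr in Des+ segments limit what could be seen of them, whereas Reln had a median of 13 counts and Ecm1 of 27.

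**Figure D3:**
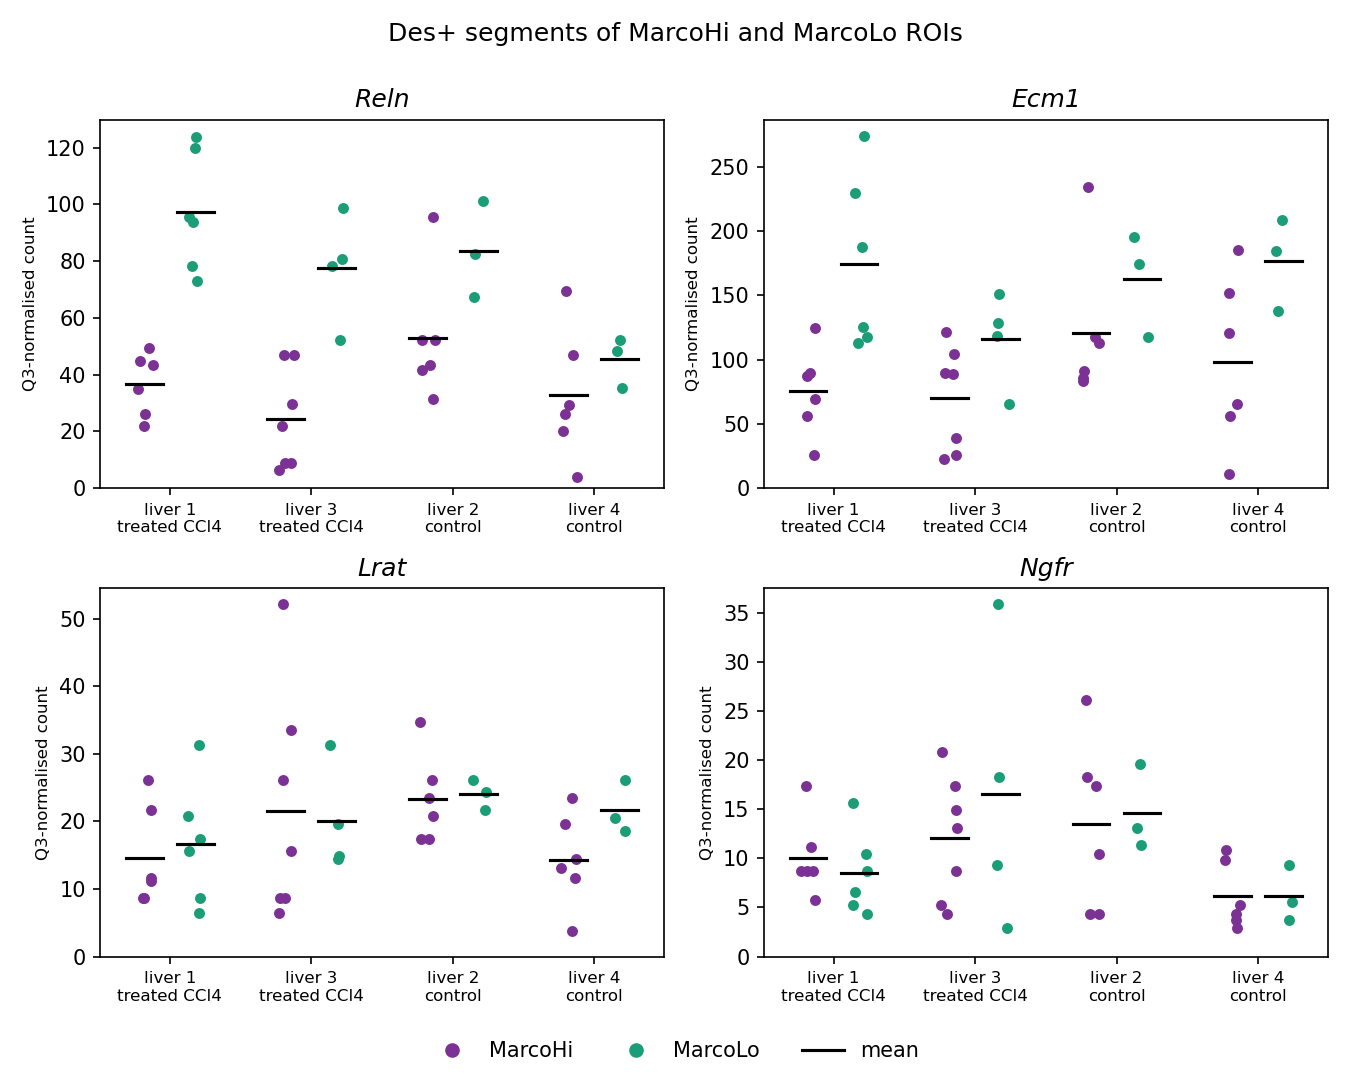
Q3-normalised count of Reln, Ecm1, Lrat and Ngfr in the 41 Des+ segments, by liver and ROI class, with the mean as a bar. In livers 1 and 3 every MarcoHi value of Reln lies below every MarcoLo value, while Lrat and Ngfr overlap in all livers.

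Other measures moved with this contrast. Marco was 1.12 ± 0.21 higher in Des+ segments of MarcoHi ROIs on the log2 scale (adjusted p = 0.00086), and Tagln 0.86 ± 0.24 higher (adjusted p = 0.020, limma). The Des+ segments of MarcoHi ROIs were also shallower, with a median of 3089 counts against 4602.5 in MarcoLo ROIs. The portal fibroblast genes Eln and Dpt had differences of 0.16 and -0.15 and did not pass. The part of these in the Reln and Ecm1 differences was not tested. Both genes lost their calls with counts of 1 set to 0 (adjusted p = 0.11 for Reln and 0.20 for Ecm1), with the 10th percentile of each segment subtracted (0.16 and 0.25), and without liver 2 (0.22 for each) or liver 4 (0.20 and 0.39). Ecm1 also lost it without liver 1, and the values kept their sign in each case. No Des+ segment stood at 1 count for Ecm1, so setting counts of 1 to 0 left its own values unchanged. Its adjusted p moved there because limma pools variance over genes and adjusts over all of them.

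By label, Reln fell in MarcoHi ROIs of the livers labelled treated CCl4 by 1.51 ± 0.29 on the log2 scale (adjusted p = 0.0019), the second lowest of 607 values, and it was 1 of 14 genes passing there and the 1 member passing (2.31% of all genes passed, 1.81% as lower). Its call there was lost without liver 3, with counts of 1 set to 0 (adjusted p = 0.20) and with the 10th percentile subtracted (0.28). The call was also lost without liver 2 or 4. Those livers do not enter the estimate for this pair and bear on it only through the variance and degrees of freedom of the fit. In the livers labelled control the Reln difference was -0.56 ± 0.29 (adjusted p = 0.47). Ecm1 differed by -0.96 ± 0.29 (adjusted p = 0.074) and -0.63 ± 0.29 (adjusted p = 0.44) in the pairs. Marco in the same Des+ segments was higher in MarcoHi ROIs by 1.69 ± 0.29 (adjusted p = 0.00068) in the pair labelled treated CCl4. In the pair labelled control it was higher by 0.56 ± 0.29 (adjusted p = 0.47, limma). The difference of Marco between the pairs had an adjusted p of 0.64 (limma), and its part in the Reln values was not tested. In the pair labelled control 0 of 607 genes passed by limma, edgeR or DESeq2, and 64 had an unadjusted p below 0.05. The test of the difference between the pairs gave -0.95 ± 0.41 for Reln (adjusted p = 0.64) and -0.32 ± 0.41 for Ecm1 (adjusted p = 0.96), so the pairs were not shown to differ.

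The deep Else segments are separate libraries from the same ROIs and animals, in which none of the 4 genes was ever at 1 count. Reln and Ecm1 fell in MarcoHi ROIs there too. Ecm1 had a median of 12.7 in 28 MarcoHi and 18.6 in 21 MarcoLo segments. The log2 difference was -0.42 ± 0.05 (adjusted p = 0.0028, limma), lower in 4 of 4 livers from -0.05 in liver 2 to -0.67 in liver 1. The SD of the liver differences was 0.27, and the SE leaves out variation between the label pairs. Reln averaged 9.90 in MarcoHi and 14.2 in MarcoLo segments of liver 1, 9.12 and 10.2 in liver 2, 11.6 and 15.1 in liver 3, and 9.42 and 10.7 in liver 4. The Reln difference was -0.29 ± 0.04 (adjusted p = 0.0030, SD of the liver differences 0.16), and in liver 3 the classes did not overlap. Lrat (-0.10 ± 0.05, adjusted p = 0.31) and Ngfr (0.04 ± 0.04, adjusted p = 0.77) did not pass, so 2 of 4 genes were called lower against 3.29% of all genes (5.11% in either direction). Without liver as a block neither call held (adjusted p = 0.30 for Reln and 0.87 for Ecm1), nor did either with the 10th percentile subtracted (0.12 and 0.16). In the pair labelled treated CCl4, Reln (-0.42 ± 0.06, adjusted p = 0.0042) and Ecm1 (-0.62 ± 0.08, adjusted p = 0.0033) passed as lower, where 3.62% of all genes passed, 0.659% as higher and 2.97% as lower. In the pair labelled control the values were -0.16 ± 0.06 and -0.22 ± 0.08 (adjusted p = 0.38 for each), and the test of the difference between the pairs gave an adjusted p of 0.52 for each.

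In Marco+IBA+ segments the differences had the same sign for 3 genes and none passed, with -0.51 ± 0.18 for Reln (adjusted p = 0.37), -0.43 ± 0.16 for Ecm1 (adjusted p = 0.39), -0.20 ± 0.14 for Lrat (adjusted p = 0.60) and 0.25 ± 0.17 for Ngfr (adjusted p = 0.60). Of all genes 3 passed by limma (0.494%), and of the 4 members 2 had an unadjusted p below 0.05, 2 passed by edgeR and 0 by DESeq2. Over all genes these numbers were 64, 30 and 9. The sizes in Des+ segments were not shown to differ from those in the other types. Reln differed by -0.75 ± 0.24 from Else (adjusted p = 0.19) and by -0.52 ± 0.24 from Marco+IBA+ segments (adjusted p = 0.24), and Ecm1 by -0.37 ± 0.19 (adjusted p = 0.45) and -0.36 ± 0.19 (adjusted p = 0.33). In Marco-IBA+ segments, where 3 livers had both classes and no test was run, the Reln difference was -1.26, -0.12 and 0.38 in livers 1, 3 and 4. That of Ecm1 was 0.49, -0.19 and -0.02, with 5 of 11 MarcoHi and 0 of 13 MarcoLo segments at 1 count. Ngfr read higher in MarcoHi ROIs there in 3 of 3 livers, by 0.71 to 1.20, with 15 of 24 segments at 1 count and a median worth of 1 count of 13.0 in MarcoHi against 5.21 in MarcoLo segments.

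**Figure D4:**
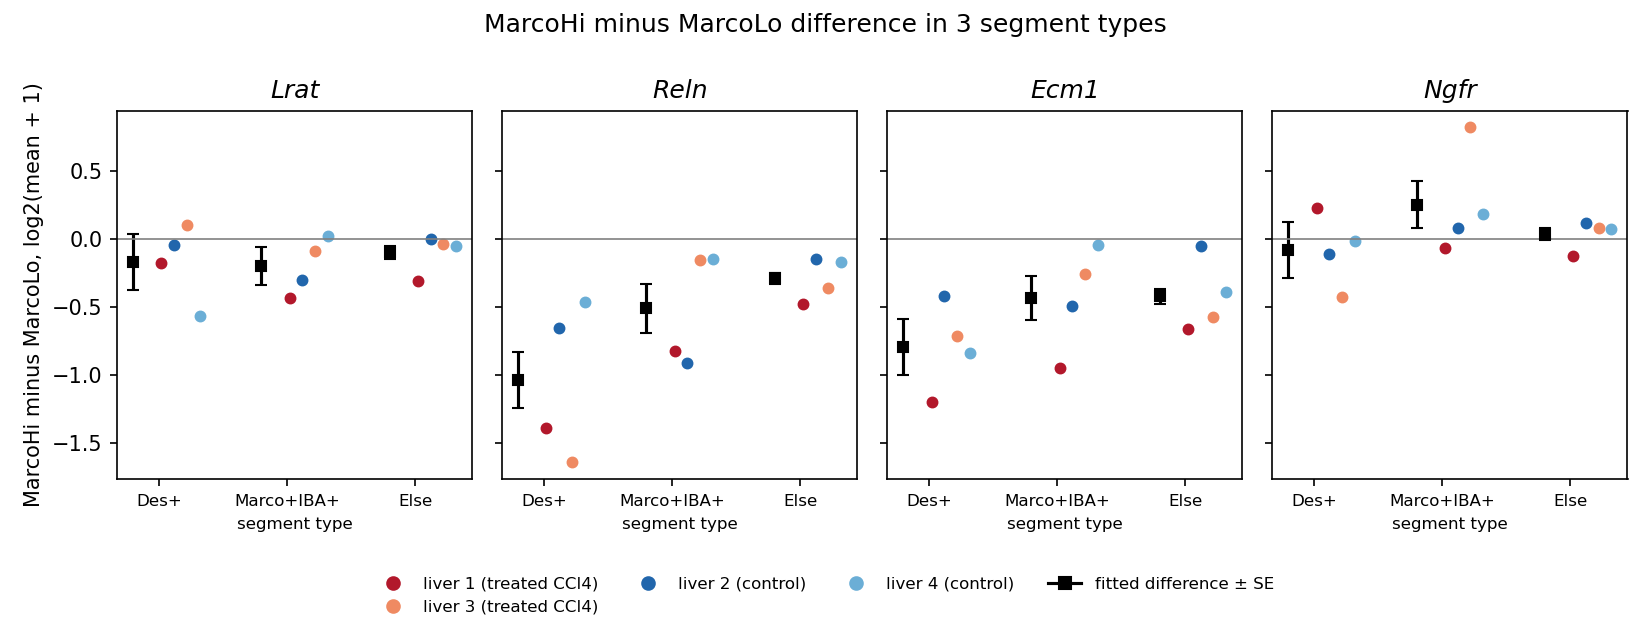
MarcoHi minus MarcoLo difference of log2(mean + 1) for each gene in Des+, Marco+IBA+ and Else segments. Black squares with bars are the fitted difference ± SE, which leaves out variation between the label pairs, and dots are single livers. All 12 dots of Reln and all 12 of Ecm1 lie below 0, while those of Lrat and Ngfr lie on both sides.

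Between the livers labelled treated CCl4 and control, none of the 4 genes passed in Des+ segments. The log2 differences were -0.41 ± 0.23 for Ecm1 (adjusted p = 0.81), -0.17 ± 0.24 for Lrat (adjusted p = 0.90), 0.26 ± 0.29 for Ngfr (adjusted p = 0.88) and 0.01 ± 0.26 for Reln (adjusted p = 0.99, limma). Of the 4, 0 had an unadjusted p below 0.05, and 0 passed by edgeR or DESeq2, beside 0 of 607 genes (0%) by limma. In Else segments 0 of 4 passed by limma and edgeR and 2 by DESeq2, with 2 at an unadjusted p below 0.05. Over all 607 genes the numbers there were 0 by limma, 0 by edgeR, 114 by DESeq2 and 140 unadjusted. In Marco+IBA+ segments 0 of 4 passed by any of these, beside 4 genes by limma (0.659%), 13 by edgeR, 15 by DESeq2 and 67 unadjusted. Each label holds 2 livers.

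The genes of the same pathways were few in the table. Over all 607 genes, 37.6% passed as higher in Des+ than in Else segments. Of 16 genes listed for retinoid storage and signalling 3 were measured, and 2 of these, Lrat included, passed as higher in Des+ than in Else segments. Lpl, lipoprotein lipase, did not pass there (-0.17 ± 0.19, adjusted p = 0.45) and was lower in Des+ than in Marco+IBA+ segments, with a log2 difference of -1.71 ± 0.19 (adjusted p = 5.1e-07). Of 9 reelin pathway genes Reln and Itgb1, an integrin chain, were measured, and Itgb1 had a difference of 0.20 ± 0.12 (adjusted p = 0.16) between Des+ and Else segments. Of 14 neurotrophin genes 3 were measured, and 2 of these, Ngfr included, passed as higher in Des+ than in Else segments. Maged1, which binds the receptor inside the cell, had -0.29 ± 0.15 (adjusted p = 0.10). Of 18 genes of latent TGF-beta and partners of ECM1 5 were measured, of which 4 passed as higher in Des+ than in Else segments, led by Ecm1, Ltbp4 (1.47 ± 0.15, adjusted p = 9.3e-08), a latent TGF-beta binding protein, and Adamts1 (0.85 ± 0.19, adjusted p = 0.00085), a matrix protease. Itgb5, the integrin beta 5 chain, had 0.05 ± 0.14.

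Of 29 further genes of quiescent stellate cells 25 were measured. Of these, 23 passed as higher in Des+ than in Else segments, where 37.6% of all 607 genes did. The differences of the 25 had a median of 1.34 on the log2 scale, where that of the whole table was 0.08. The largest were Igfbp3 (2.69 ± 0.26, adjusted p = 6.6e-08), which binds insulin-like growth factors, Colec11 (2.37 ± 0.18, adjusted p = 2.1e-09), a collectin of the lectin complement pathway, and Prelp (2.29 ± 0.18, adjusted p = 3.1e-09), a matrix proteoglycan. Of 27 listed genes of activated stellate cells 18 were measured and all 18 passed in the same direction (median 1.18), led by the collagen genes Col3a1 (3.02 ± 0.14), Col1a1 (2.35 ± 0.17) and Col1a2 (1.89 ± 0.15). The Des+ segments thus read high for genes of both states. Since the table was selected for stellate cell genes, these counts describe the lists and set nothing apart from the rest of the table.

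In MarcoHi Des+ segments, 22 of the 25 quiescent genes had a negative difference (median -0.39 against 0.02 over all genes), but 1 passed, Abcc9, a channel subunit of mural cells, at -0.89 ± 0.20 (adjusted p = 0.0060). Of the 18 activated genes 6 passed as lower and 3 as higher, where 3.79% of all 607 genes passed as lower and 0.659% as higher. The largest were Lum (-1.18 ± 0.20, adjusted p = 0.00062), a collagen-binding proteoglycan, Col3a1 (-1.17 ± 0.23, adjusted p = 0.00086) and Col1a2 (-0.90 ± 0.21, adjusted p = 0.0063). The 3 that rose, named after their values were seen, were Tagln (0.86 ± 0.24, adjusted p = 0.020), Myl9 (0.85 ± 0.21, adjusted p = 0.0073) and Ccn2 (0.78 ± 0.21, adjusted p = 0.015), of which the first pair belong to the contractile apparatus and Ccn2 encodes a matricellular growth factor. In these segments Reln and Ecm1 fell alongside collagen genes. In Else segments 3 of the 25 quiescent genes passed as lower, where 3.29% of all 607 genes did. They were Colec11 (-0.29 ± 0.05), Rgs5 (-0.18 ± 0.04) and Hgf (-0.17 ± 0.04), with Col3a1 (-0.43 ± 0.04) and Col1a1 (-0.38 ± 0.06) among the activated genes.

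Stellate cells differ between the portal and the central vein, and Ngfr is known as a gene of the portal side. Of the portal-side genes listed, Ngfr, Igfbp3 and Fbln5 were measured. All 3 passed as higher in Des+ than in Else segments, where 37.6% of all 607 genes did. Of the central-side genes Adamtsl2 passed (1.44 ± 0.21) and Rspo3 did not (-0.14 ± 0.18, adjusted p = 0.54). In the comparison of MarcoHi with MarcoLo Des+ segments none of these 5 genes passed, beside 4.45% of all 607 genes in either direction.

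The 4 genes did not vary as 1 group. Over the 16 means of liver and segment type, the Pearson correlation of log2 values was 0.87 for Lrat and Reln, 0.88 for Lrat and Ecm1, and 0.86 for Reln and Ecm1, whereas Ngfr had 0.68, 0.54 and 0.50 with Lrat, Reln and Ecm1. These points share livers and the contrast of segment types. Over the 41 Des+ segments centred on their liver means, Reln and Ecm1 kept 0.79, and 0.74 when centred on liver and ROI class, with 0.82, 0.95, 0.72 and 0.88 within livers 1 to 4. Lrat had 0.46 with Reln and 0.32 with Ecm1, and Ngfr had -0.03, 0.05 and 0.04 with Reln, Ecm1 and Lrat. Counts of 1 to 13 per segment for Ngfr leave a correlation little room. The correlation with the log2 of the total count was 0.34 for Reln, 0.23 for Ecm1, 0.08 for Lrat and 0.02 for Ngfr.

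**Figure D5:**
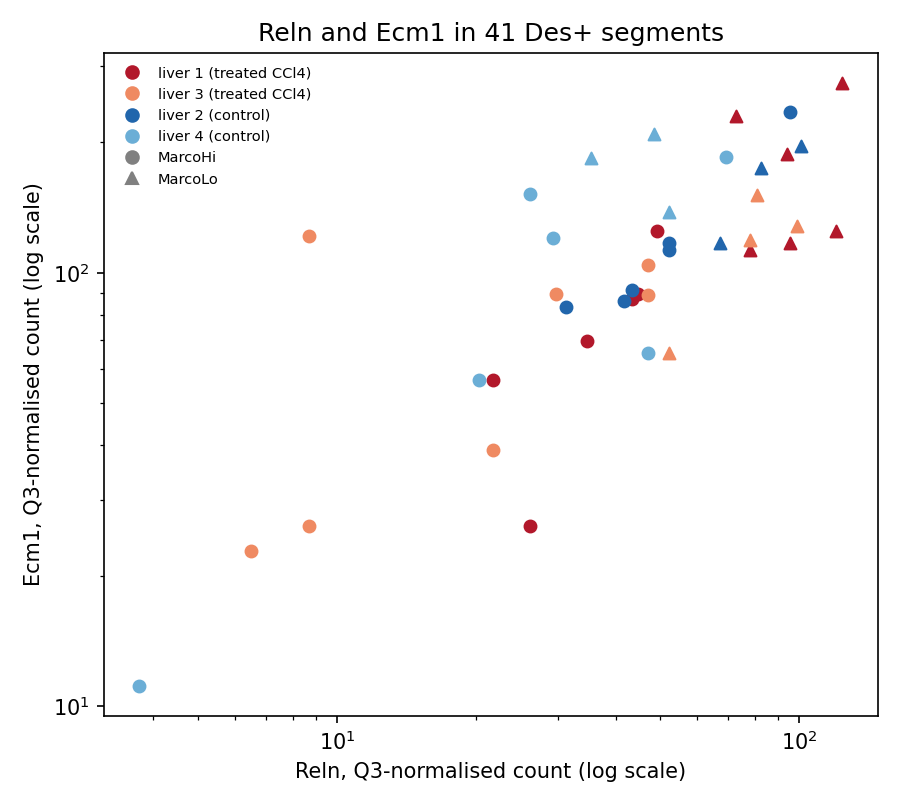
Ecm1 against Reln in the 41 Des+ segments (Q3-normalised counts, log scales), coloured by liver, with MarcoHi as circles and MarcoLo as triangles. The values rise together within each liver, with correlations from 0.72 to 0.95, and the triangles gather at the upper end.

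By the same measure over the 16 means, the genes most like Lrat were Nid1 (0.95), Tagln (0.94) and Col5a1 (0.93), those most like Reln were Colec11 (0.96), Pam (0.96) and Col14a1 (0.96), and those most like Ecm1 were Colec10 (0.95), Bgn (0.95) and Dcn (0.94). Ngfr was most like Ednra (0.92), Tnc (0.90) and Bmp10 (0.89). Over the 41 centred Des+ segments, the gene most like both Reln and Ecm1 was Dcn, which encodes the proteoglycan decorin (0.82 with each), and next to it stood each other, followed by Cxcl12 (0.73) for Reln and Masp1 (0.78) for Ecm1. For Lrat they were Col5a1 (0.55), Fhl1 (0.54) and Vipr1 (0.48), and for Ngfr Emp3 (0.46), Pdgfrb (0.44) and Emc7 (0.44).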

How the data were processed

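Per the methods, formalin-fixed sections were hybridised with the GeoMx mouse whole transcriptome probes, and barcodes were released per segment, sequenced and deduplicated. The submitters' processing notes name bcl2fastq 2.20.0.422 and mm10. The deposited values are a signal, counts that the authors normalised to the third quartile, for genes they selected from their stellate cell data. Within a segment every value divided evenly by a single step (96513 of 96513 values, relative tolerance 1e-06), and this division gave counts, to within an offset of 1 that the sources used here do not settle.

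The sample titles gave the liver, ROI class and segment type, and the liver pairs the samples because each is 1 animal. Segments of a liver and group were averaged, taken as log2 after a pseudocount of 1 and fitted with limma 3.58.1, liver as a block, with Benjamini-Hochberg adjustment over 607 genes and a threshold of 0.05. Fold changes are on the log2(value + 1) scale. The label comparison had no block. The class comparison within a segment type gave each label pair its own MarcoHi term. Its SE therefore leaves out variation between the pairs, is moderated across genes and is not the spread over the livers. Sums of these counts over a liver and group went into edgeR 4.0.16 and DESeq2 1.42.0, and single segments with lme4 1.1.37 and lmerTest 3.1.3 (R 4.3.3, Python 3.11.15). Other alternatives were pseudocounts of 0 and 5, genes of at least 5 mean counts, mean of logs, median, re-centring, subtraction of the 10th percentile, ROIs of equal class weight, segments of the same ROI, and leaving out an unclassed ROI or a liver.

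The 4 genes and the lists were chosen with earlier results of these data known. The 4 genes are given in every comparison, and by rule, of each list, at most the 3 passing genes with the largest difference. List genes named beyond these, passing or not, were chosen after their values were seen. Gene positions and promoter sequences are from RefSeq tables of GRCm38.p6, in which all 607 symbols matched. The fits were tested on simulated data. Some listed genes are not reported here by name.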

Additional observations from a re-analysis of the deposited data

Results flagged for a closer look

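Dixon's test at the 95% level was applied to 112 sets of segments or liver means of the 4 genes, and 8 held a value far from its set, where chance gives about 1 in 20. In Marco+IBA+ segments of liver 2, the lowest Lrat value was 2.82 of 8 in MarcoHi ROIs and 3.72 of 6 in MarcoLo ROIs. The lowest Reln value was 1.68 of 7 in Marco+IBA+ MarcoHi segments of liver 4 and 8.69 of 4 in Marco-IBA+ MarcoLo segments of liver 3. Both Reln values and the Lrat value of 3.72 stood at a recovered count of 1, which cannot be told from no detection. The highest Ecm1 value of 6 in Des+ MarcoHi segments of liver 2 was 235. The liver mean of Ecm1 in Marco+IBA+ segments was 5.08 on the log2 scale in liver 3, below the other 3 livers. Ngfr was lowest at 3.30 of 7 in Else MarcoHi segments of liver 4 and highest at 10.9 of 5 in Marco+IBA+ MarcoHi segments of liver 1.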

How the results depend on the processing

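Among the values of the 4 genes under the alternatives, 711 kept direction and side of the threshold, 40 lost the call, 13 gained it and 23 changed sign. Ecm1 kept its call in Des+ against the 3 other segment types under all 18 alternatives.

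With counts of 1 set to 0 (chosen after seeing the data) Des+ minus Else was 1.31 for Lrat, 2.10 for Reln and 0.48 for Ngfr, and Des+ minus Marco+IBA+ was 0.84, 1.61 and 0.61, none passing. Des+ minus Marco-IBA+ became 1.04 for Ngfr, and Marco-IBA+ minus Else -0.66 for Lrat, -0.33 for Reln and -0.56 for Ngfr. The class difference in Des+ was -1.06 for Reln and -0.79 for Ecm1, not passing. Ecm1 had no Des+ segment at 1 count, so its own values did not change there. With the 10th percentile subtracted, Des+ minus Marco+IBA+ was 1.22 for Lrat and 1.16 for Ngfr, and the class difference in Des+ -1.17 for Reln and -0.84 for Ecm1, not passing, while the sign turned for Ngfr in Des+ minus Marco-IBA+ (0.74), Ngfr in Marco+IBA+ minus Else (0.86) and Reln between labels (-0.0084). Re-centring on the segment median gave 0.47 for Ngfr in Des+ minus Else and -0.71 for the class difference of Ecm1 in Des+, not passing. With the median over segments the latter was -0.80, not passing, and its label difference 0.14. Ngfr turned sign by edgeR (0.20) and DESeq2 (0.13) in Des+ minus Marco-IBA+, and by edgeR in Marco+IBA+ minus Else (0.014). In MarcoHi ROIs alone Reln differed by -0.47 between labels. The cause was not tested.

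Leaving out each liver, the class difference in Des+ ranged from -1.10 to -0.97 for Reln, -0.91 to -0.67 for Ecm1 and -0.25 to 0.081 for Ngfr, and in Else from -0.015 to 0.086 for Ngfr. Ngfr ranged from 0.46 to 1.01 in Des+ minus Marco+IBA+, -0.31 to 0.038 in Des+ minus Marco-IBA+ and -0.15 to 0.12 in Marco+IBA+ minus Else. The label difference in Des+ ranged from -0.37 to 0.032 for Lrat, -0.37 to 0.40 for Reln and -0.27 to 0.80 for Ngfr. Without the replicate block, the class differences in Else (-0.29 for Reln and -0.42 for Ecm1) no longer passed (adjusted p = 0.30 and 0.87), and those in Des+ did.

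The number of all genes passing moved by over 1.5 times as follows. With counts of 1 set to 0 it went from 400 to 160 for Des+ minus Else and from 320 to 99 for Des+ minus Marco+IBA+ (179 with the 10th percentile subtracted). In the same ROI it went from 282 to 151 for Des+ minus Marco-IBA+. For class in Des+ the 27 genes became 43 by edgeR, 42 by the mixed model, 9 by DESeq2, 15 with the median, 16 re-centred, 12 without liver 3 and 0 without liver 2, without liver 4, with counts of 1 set to 0 or with the 10th percentile subtracted. Members passing for Marco-IBA+ minus Marco+IBA+ went from 1 to 2 without liver 2 and to 0 by edgeR, DESeq2, the 10th percentile or counts of 1 set to 0, and for the label in Else from 0 to 2 by DESeq2. Low counts limit Lrat and Ngfr in Des+ and all members in Marco-IBA+ segments, where Ecm1 was at 1 count in 5 of 11 MarcoHi segments. The number of livers and the choice of processing both limit the class calls in Des+.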
